A study of Homo sapiens with 6 samples.

Results

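Ribosome biogenesis and RNA polymerase I transcription were followed through 52 genes, chosen by symbol from a fixed list of nucleolar factors, in cells of one breast cancer line treated with a pair of compounds. All 52 were found among the 46427 genes of the deposited table, and all 52 were among the 16557 genes that passed the filter on low counts. MDA-MB-231/RR is a radioresistant derivative of MDA-MB-231, a human triple-negative breast cancer line. The control group comprised 3 samples of these cells with no treatment named, and the other group 3 samples labelled as treated with ortho-topolin riboside (oTR), the riboside of an aromatic plant cytokinin, together with melatonin, the pineal hormone. The sources used here give no doses, exposure times or vehicle, and samples treated with either compound alone were not analysed here. The study asked whether co-treatment alters the transcriptome and metabolome of these cells. All results refer to one cell line, and no label states whether samples within a group were grown as separate cultures. The p-values therefore reflect the spread among these samples alone, and that spread may be technical.

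The ribosome is assembled in the nucleolus. RNA polymerase I transcribes a long precursor that holds the 18S, 5.8S and 28S ribosomal RNAs. Small nucleolar particles of the box C/D and box H/ACA classes guide methylation and pseudouridylation of this precursor, the small subunit processome folds and cleaves it, and separate sets of GTPases, helicases and scaffold proteins build the large subunit. In cancer cells these genes are widely known as targets of the transcription factor MYC, and their output sets how fast a cell can make protein.

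Library totals of estimated counts lay between 50569611 and 72309015. The mesenchymal-type markers VIM, CD44 and AXL and the luminal keratin KRT18 were present in every library (lowest TPM 2037, 249, 342 and 517), ESR1 and PGR were at or near 0 (at most 2 estimated counts), and ERBB2 was at 28.3 to 37.4 TPM. Among markers of other cell types, PTPRC, DCN and ADIPOQ were at 0 counts in all libraries and PECAM1 reached 0.270 TPM. COL1A1 was at 6.79 to 9.25 TPM. Co-treated replicate 2 stood apart in ribosomal RNA, which made up 1.07% of its counts against 0.294% to 0.551% in the other 5 libraries. Values without that library are given beside the results on ribosomal RNA and on the 52 genes together. In bulk RNA, a change in the level per cell and a change in the share of cells that express a gene cannot be told apart.

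Transcripts of the ribosome-making machinery were lower in co-treated cells by a modest amount. Of the 52 genes, 46 (88.5%) fell and 0 rose (edgeR quasi-likelihood test, Benjamini-Hochberg over all genes tested, adjusted p of 0.05). Among all 16557 genes tested, 17.1% fell and 16.6% rose (33.7% in all), and no gene of the 52 was higher even at an unadjusted p of 0.05. The median log2 fold change was -0.34, against 0.002 over all genes, and single genes ranged from -0.60 (PPAN) to -0.03 (RRP1B). In 49 of the 52 genes every co-treated library was below every control library, a pattern seen in 24.1% of all genes. These genes were listed with earlier results of the same data known, so their common direction is a description and not independent evidence.

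**Figure D1:**
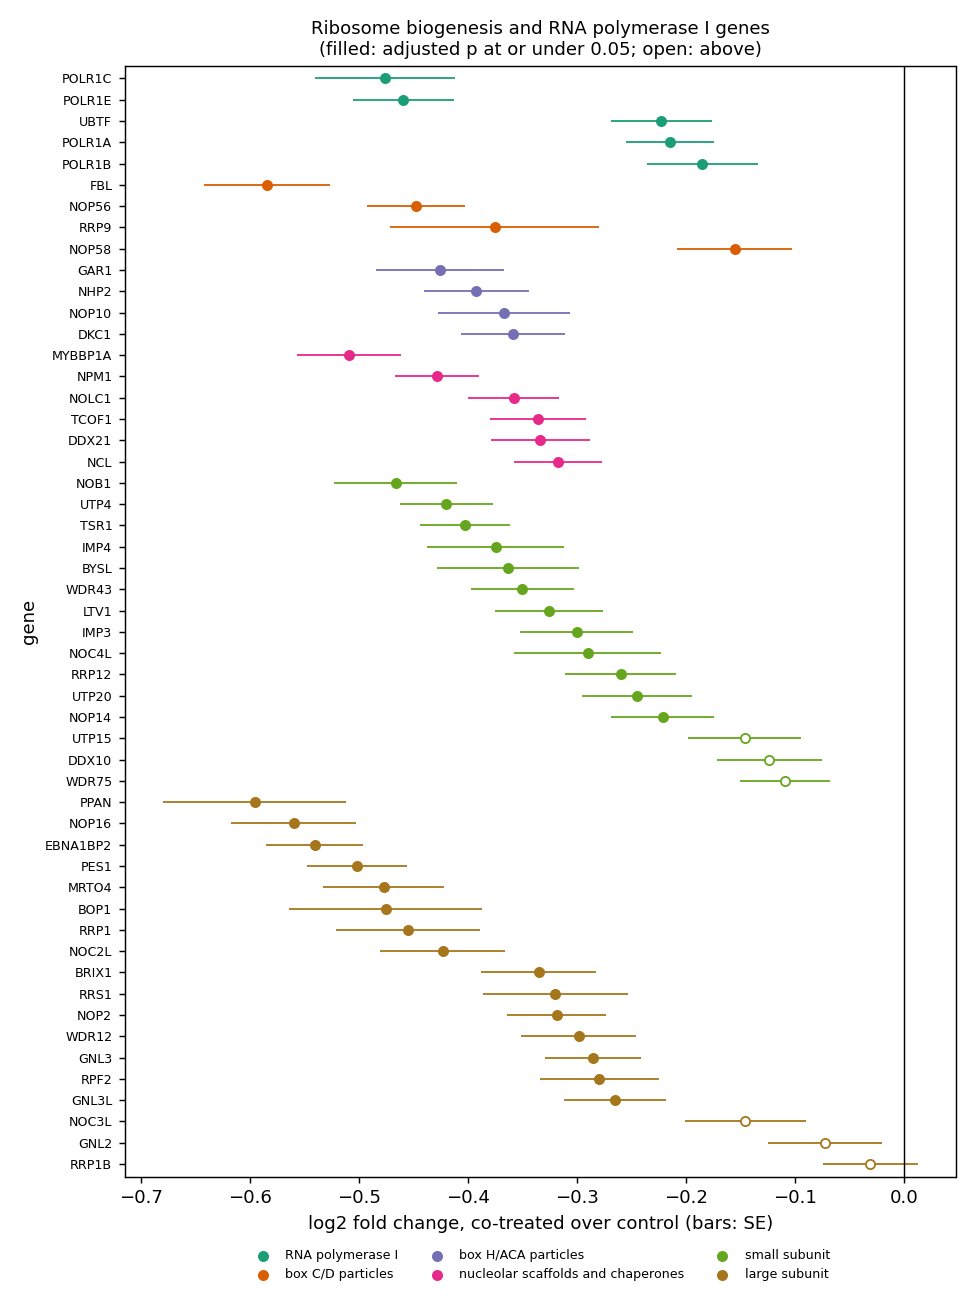
Log2 fold change of each of the 52 genes, co-treated over control (x axis, bars are standard errors of the fit), by role (colour). Filled points are the 46 genes with an adjusted p at or under 0.05, open points the other 6, and every point lies to the left of 0 (on the TPM scale WDR75, DDX10, GNL2 and RRP1B lie above 0, and RRP1B also with library size alone).

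Library by library, the fall was of like size. Relative to the geometric mean of the controls, the median of the 52 genes was -0.37, -0.37 and -0.30 on the log2 scale in co-treated replicates 1, 2 and 3, and -0.01, -0.02 and 0.04 in control replicates 1, 2 and 3. The same median over all genes of at least 1 CPM lay between -0.004 and 0.006 in all 6 libraries. As a share of all estimated counts, the 52 genes made up 1.199%, 1.181% and 1.206% in the controls and 0.970%, 0.946% and 0.988% in the co-treated libraries. Without co-treated replicate 2 the median was -0.33 and 44 of the 52 genes fell, against 13.9% of all genes.

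**Figure D2:**
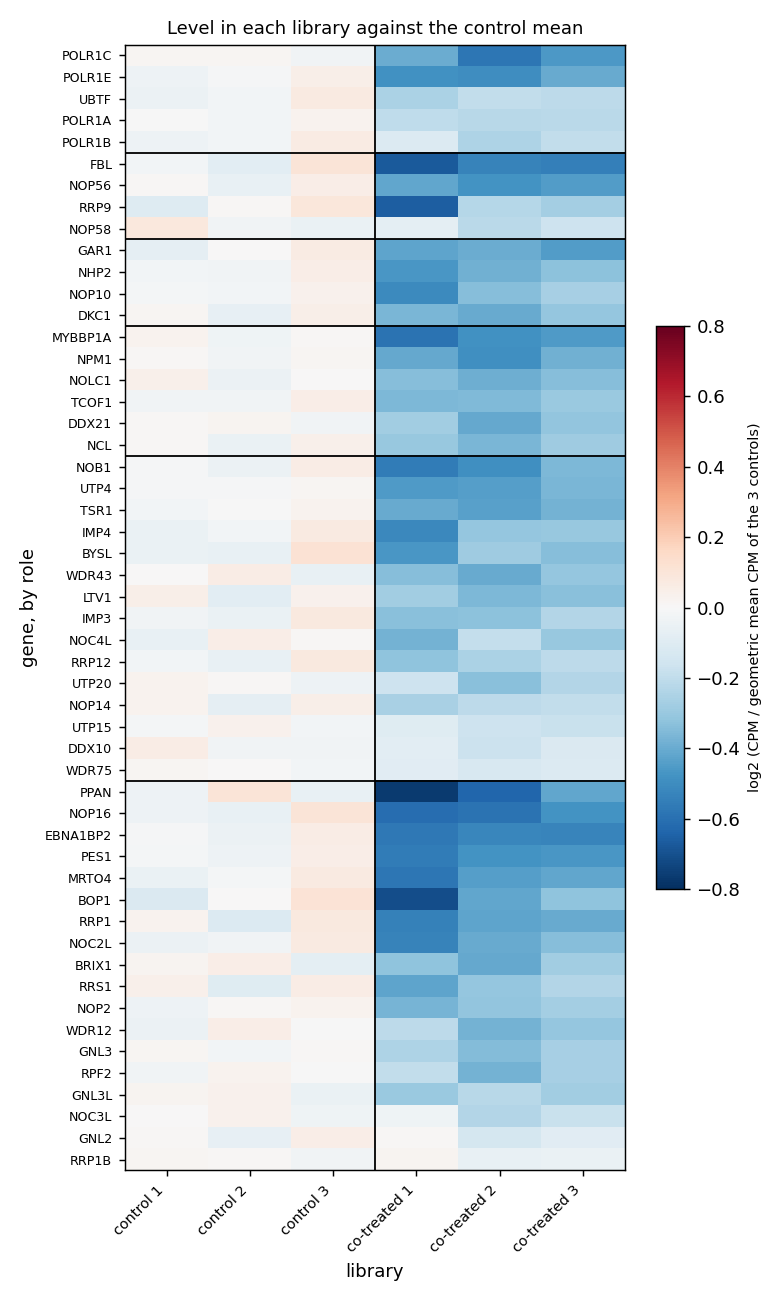
Level of each of the 52 genes (rows, by role) in each of the 6 libraries (columns), as log2 of CPM over the geometric mean CPM of the 3 controls. Blue is lower than the controls: PPAN, BOP1, FBL and RRP9 are deepest in co-treated replicate 1, and GNL2 and RRP1B are near white throughout.

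The size of the fall depends on the unit. On log2(TPM + 1), with limma in place of edgeR, 35 of the 52 genes fell and 0 rose, against 8.09% of all genes falling, and all 35 were also called on estimated counts. The 11 genes called on estimated counts alone were POLR1A, POLR1B, UBTF, NOP58, RRP9, UTP20, NOP14, NOC4L, WDR12, RPF2 and GNL3L. The median of the 52 was then -0.21 while that of all genes was 0.09, and 4 genes that were not called (WDR75, DDX10, GNL2 and RRP1B) lay above 0. With a pseudocount of 0.1 the count was again 35 (8.08% of all genes), and with no filter 29 fell, against 3.73% of all genes. On estimated counts with no filter 45 fell, against 10.1%.

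Promoters of these genes are shown because the genes moved together. RefSeq promoters on GRCh38.p14, from 250 bases before to 50 bases after the first listed start, were found for 43 of the 52 genes. The E-box CACGTG, which reads the same on both strands and is a known site of MYC and MAX, was in 17 of the 43 (39.5%), against 10.03% of 12026 promoters of tested genes and 7.44% of all 27305 promoters of that length. The ETS-type motif CCGGAAG, on either strand, was in 15 of the 43 (34.9%), against 18.4% of promoters of tested genes. Among 112 promoters of other genes of the pathway, the E-box was in 22 (19.6%) and the ETS-type motif in 47 (41.96%), a larger share than in the 43. In the sequences that follow, 5′ to 3′ on the gene's strand, capitals mark both motifs (overlapping matches are merged). FBL, PES1 and UTP4 are shown as genes that fell and hold the E-box, POLR1C as one with the ETS-type motif alone, and GNL2 as one that holds the E-box and was not called.
FBL, chr19:39846330-39846629, minus strand: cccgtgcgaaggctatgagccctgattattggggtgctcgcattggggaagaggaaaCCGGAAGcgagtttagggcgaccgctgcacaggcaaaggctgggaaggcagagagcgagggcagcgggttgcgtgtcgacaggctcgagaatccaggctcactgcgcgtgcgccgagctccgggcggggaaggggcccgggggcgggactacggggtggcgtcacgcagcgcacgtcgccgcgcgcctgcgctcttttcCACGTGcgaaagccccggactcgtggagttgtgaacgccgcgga
PES1, chr22:30591861-30592160, minus strand: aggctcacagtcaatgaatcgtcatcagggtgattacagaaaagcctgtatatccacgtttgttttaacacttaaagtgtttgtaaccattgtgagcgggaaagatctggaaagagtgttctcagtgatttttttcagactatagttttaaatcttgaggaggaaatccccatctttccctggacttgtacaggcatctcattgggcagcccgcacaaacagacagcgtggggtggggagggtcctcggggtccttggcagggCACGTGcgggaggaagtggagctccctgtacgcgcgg
UTP4, chr16:69132399-69132698, plus strand: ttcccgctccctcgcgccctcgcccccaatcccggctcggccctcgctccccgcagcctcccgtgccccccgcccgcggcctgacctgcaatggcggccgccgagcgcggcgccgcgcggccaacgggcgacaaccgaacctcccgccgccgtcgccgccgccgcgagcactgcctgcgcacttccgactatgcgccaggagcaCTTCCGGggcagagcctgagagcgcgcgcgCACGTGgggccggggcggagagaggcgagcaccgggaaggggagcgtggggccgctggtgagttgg
POLR1C, chr6:43516839-43517138, plus strand: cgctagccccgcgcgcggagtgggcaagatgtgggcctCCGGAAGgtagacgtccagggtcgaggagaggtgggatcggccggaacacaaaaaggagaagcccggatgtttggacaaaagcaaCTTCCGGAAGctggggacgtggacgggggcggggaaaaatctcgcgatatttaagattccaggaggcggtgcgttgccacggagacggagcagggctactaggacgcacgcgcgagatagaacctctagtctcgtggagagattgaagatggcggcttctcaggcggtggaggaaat
GNL2, chr1:37595888-37596187, minus strand: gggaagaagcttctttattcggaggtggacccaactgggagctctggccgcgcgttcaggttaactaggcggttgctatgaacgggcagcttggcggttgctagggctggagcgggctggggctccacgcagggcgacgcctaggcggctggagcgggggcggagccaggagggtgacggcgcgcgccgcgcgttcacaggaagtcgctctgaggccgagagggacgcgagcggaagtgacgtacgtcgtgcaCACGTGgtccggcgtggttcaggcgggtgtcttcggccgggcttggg
In FBL and PES1 the E-box lies just after the start and in UTP4 just before it. POLR1C holds 3 ETS-type matches, a pair of which overlap on opposite strands.

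The motif lay mostly close to the start. The first base of an E-box lay 0 to 49 bases after the start in 12 of the 43 promoters (27.9%), against 1.16% of promoters of tested genes, and 1 to 50 bases before the start in 4 (9.30% against 3.04%). With the whole motif within the 100 bases before the start the shares were close, at 3 of 43 (6.98%) against 4.82%. Over all 52 starts listed for these 43 genes, 21 held the motif (40.4%), against 9.18% of 17265 starts of tested genes. Among the 43, the 17 genes with an E-box had a median log2 fold change of -0.37 and the 26 without one -0.33. Of these, 15 and 23 fell, against 17.1% of all genes tested. No difference between genes with and without an E-box was tested. A match of letters is not a bound site.

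**Figure D3:**
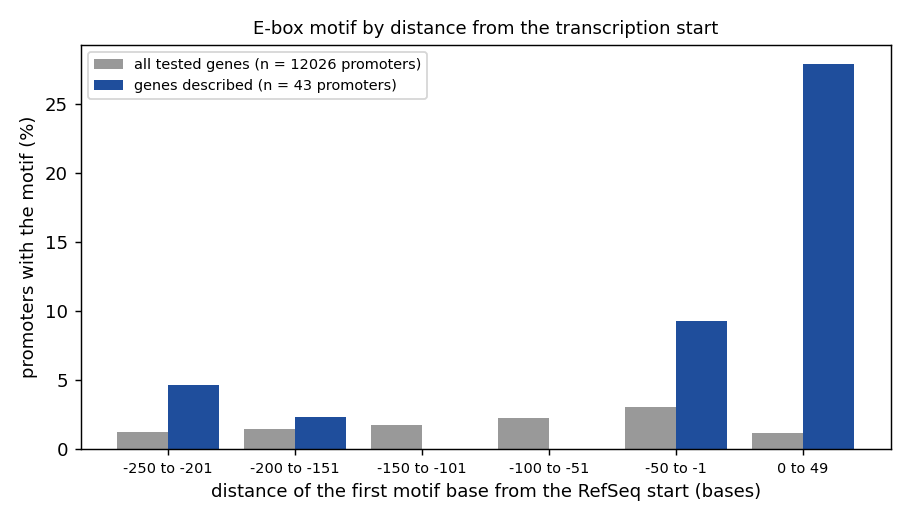
Share of promoters with an E-box (y axis, %) by distance of its first base from the RefSeq start in windows of 50 bases (x axis), for 43 promoters of the genes described (blue) and 12026 promoters of tested genes (grey). The window just after the start holds the motif in 27.9% of the first and 1.16% of the second.

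Transcripts of all 5 genes listed under RNA polymerase I among the 52 (subunits and the factor UBTF) were lower, with a median log2 fold change of -0.22. Of all genes tested, 17.1% fell. Most of the further genes of this machinery, given below, were not called. POLR1C (gene ID 9533, chromosome 6, 43517024 to 43562407 on GRCh38), a subunit shared with RNA polymerase III, stood at 23.5, 23.6 and 22.8 normalized CPM in the controls and at 17.7, 15.6 and 16.9 CPM in the co-treated libraries. The groups did not overlap, and its log2 fold change was -0.48 ± 0.06 (SE; edgeR adjusted p = 0.000343). POLR1E, a subunit of the initiation-competent enzyme, was at 111, 113 and 118 CPM in the controls and at 81.4, 80.6 and 86.2 CPM after co-treatment, a log2 fold change of -0.46 ± 0.05 (SE). The catalytic subunits and UBTF had smaller fold changes, and that difference was not tested. POLR1A, the largest subunit, fell by 0.21 ± 0.04 and UBTF, which binds along ribosomal DNA and opens it, by 0.22 ± 0.05 on the log2 scale (SE). POLR1B, the subunit that completes the active centre, was at 79.0, 80.2 and 85.1 CPM in the controls and 75.4, 68.5 and 71.1 CPM after co-treatment (log2 fold change -0.18 ± 0.05, SE; edgeR adjusted p = 0.0173). That call was lost when control replicate 3 was left out (-0.15, adjusted p = 0.0656; 45 of the 52 genes were then lower, against 12.9% of all genes). It was also lost on leaving out replicate 2 (-0.15, 0.0759) or replicate 3 (-0.18, 0.0603) of the co-treated libraries. On log2(TPM + 1) neither POLR1A, POLR1B nor UBTF was called (limma adjusted p = 0.166, 0.570 and 0.102), so of the 5 polymerase genes only POLR1C and POLR1E were called on both scales.

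Of 16 further genes of this machinery (other subunits, the selectivity factor and termination factor), 5 fell (31.25%, against 17.1% of all genes tested) and 0 rose. Their median was -0.09, and 11 were not called, among them POLR1D, POLR1F and RRN3. POLR1G and POLR1H, subunits specific to polymerase I, fell by 0.56 ± 0.08 and 0.47 ± 0.07 on the log2 scale (SE). POLR2F and POLR2E, subunits common to all nuclear polymerases, fell by 0.39 ± 0.06 and 0.23 ± 0.07, and TAF1A, of the selectivity factor, by 0.30 ± 0.10 (SE). The TAF1A and POLR2E calls were lost under several alternatives, among them the TPM scale (limma adjusted p = 0.249 and 0.357). The TAF1A call was also lost when replicate 1 or 2 of the controls was left out (edgeR adjusted p = 0.0836 and 0.113), or replicate 2 or 3 of the co-treated libraries (0.119 and 0.102). POLR2E lost its call on leaving out replicate 2 or 3 of the controls (0.0590 and 0.0786).

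The product of the polymerase can be seen only in part. Estimated counts assigned to the 45S precursor genes made up 0.0610%, 0.0650% and 0.0607% of the control libraries. In co-treated replicates 1, 2 and 3 they made up 0.0667%, 0.182% and 0.0686%. The span of RNA45SN1 (chromosome 21, 8433222 to 8446572) holds those of RNA18SN1 and RNA28SN1. Counts of the 45S, 18S and 28S entries are thus not separable, and none is a measure of the precursor alone. Co-treated replicates 1 and 3 were thus close to the controls and replicate 2 was far above them. The 3 tested 45S copies, among which reads cannot be assigned, were not called (RNA45SN1, log2 fold change 0.78 ± 0.28, SE; edgeR adjusted p = 0.0529). RNA45SN2 and RNA45SN3 had log2 fold changes of 0.64 ± 0.31 and 0.72 ± 0.32 (SE; adjusted p = 0.131 and 0.107). Without co-treated replicate 2, RNA45SN2 was at -0.007 on the log2 scale, and without co-treated replicate 1 it was called higher (0.91, adjusted p = 0.0266). The 6 tested copies of the 18S and 28S RNAs rose, with groups that did not overlap, such as RNA28SN1 from 964 ± 148 to 1799 ± 618 CPM (SD, n = 3; edgeR adjusted p = 0.00455). Without co-treated replicate 2 all 6 were still called, at smaller sizes: RNA28SN1 went from a log2 fold change of 0.90 to 0.60 and RNA18SN1 from 1.45 to 0.75. RNA18SN1 was not called without control replicate 1 (1.22, adjusted p = 0.0563) or with DESeq2 (adjusted p = 0.0593), and 0 of the 6 were called on log2(TPM + 1) with no filter (limma). The sources used here do not say how ribosomal RNA was removed, and these shares do not measure the cells' ribosomal RNA.

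The genes listed under box C/D particles all fell (against 17.1% of all genes tested), by unequal amounts. FBL, the methyltransferase (gene ID 2091, chromosome 19, 39834458 to 39846395), was at 202, 194 and 220 CPM in the controls and at 129, 141 and 141 CPM after co-treatment. Its log2 fold change was -0.58 ± 0.06 (SE; edgeR adjusted p = 5.80e-05), the largest of the 4. NOP56, a core scaffold protein of the particle, was at 383, 365 and 394 CPM and then at 285, 273 and 279 CPM (-0.45 ± 0.05). For both genes the groups were far apart relative to the spread within them. RRP9, a protein of the U3 particle, changed by -0.38 ± 0.10 (SE; not called on log2(TPM + 1), limma adjusted p = 0.0774). Its co-treated replicate 1 was at 50.5 CPM and replicates 2 and 3 at 67.9 and 66.05 CPM. NOP58, the partner of NOP56 in the same particle, was at 146, 134 and 132 CPM in the controls and 130, 118 and 122 CPM after co-treatment (-0.16 ± 0.05, SE; edgeR adjusted p = 0.0421). Leaving out replicate 1 or 2 of the controls ended the NOP58 call (adjusted p = 0.169 and 0.0601), and so did leaving out replicate 2 or 3 of the co-treated libraries (0.155 and 0.117). So did removal of the length trend (-0.11, adjusted p = 0.185).

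The ratio of NOP56 to NOP58 needs no scaling for library depth, but it keeps any trend with GC content (50.9% and 41.3%) or length. It was 2.64, 2.71 and 2.98 in the controls and 2.20, 2.31 and 2.28 in the co-treated libraries. The pairs were chosen after seeing the data, and no ratio was computed with such trends removed. How often other gene pairs do not overlap was not counted. The groups did not overlap, and the log2 ratio was lower by 0.29 (difference -0.29; exact permutation test, two-sided, p = 0.1, the smallest that 3 against 3 allows; adjusted p = 0.133 over 4 pairs).

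The box H/ACA particle proteins, which carry out pseudouridylation and also hold the telomerase RNA, moved as a tight group. All 4 fell (against 17.1% of all genes tested), between -0.43 and -0.36 on the log2 scale. GAR1 (gene ID 54433, chromosome 4, 109815510 to 109824737) was at 25.9, 27.2 and 28.5 CPM in the controls and 20.2, 20.6 and 19.9 CPM after co-treatment (-0.43 ± 0.06, SE; edgeR adjusted p = 0.000390). NHP2 was at 121, 120 and 127 CPM and then 89.3, 94.2 and 97.8 CPM (-0.39 ± 0.05). DKC1, the pseudouridine synthase, was at 233, 220 and 238 CPM and then 179, 174 and 186 CPM (-0.36 ± 0.05). NOP10, the smallest of the core proteins, changed by -0.37 ± 0.06 (SE). In none of the 4 did a co-treated library reach the lowest control, a pattern seen in 24.1% of all genes tested.

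The abundant nucleolar scaffolds and chaperones all fell, 6 of 6 (against 17.1% of all genes tested), with a median of -0.35. NPM1, or nucleophosmin, a histone and ribosomal protein chaperone (gene ID 4869, chromosome 5, 171387116 to 171410900), was at 3020, 2945 and 3036 CPM in the controls and 2260, 2136 and 2294 CPM in the co-treated libraries (-0.43 ± 0.04, SE; edgeR adjusted p = 3.345e-05). NCL, or nucleolin, which binds the nascent precursor, was at 1863, 1790 and 1910 CPM and then 1503, 1441 and 1521 CPM (-0.32 ± 0.04). Within each group the spread was small beside the gap. MYBBP1A, a nucleolar binding protein of MYB family factors, was at 184, 176 and 181 CPM and then 120, 129 and 131 CPM (-0.51 ± 0.05). NOLC1 and TCOF1, related phosphoproteins that link polymerase I with the modification particles, changed by -0.36 ± 0.04 and -0.34 ± 0.04, and the helicase DDX21 by -0.33 ± 0.05 (SE).

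Small subunit factors were lower in 12 of 15 genes (80.0%, against 17.1% of all genes tested), with a median of -0.30. In CPM no gene overlapped between groups, and 24.1% of all genes were likewise lower without overlap. NOB1, the endonuclease that makes the final cut of the 18S RNA (gene ID 28987, chromosome 16, 69741854 to 69754968), was at 120, 117 and 126 CPM in the controls and 82.1, 85.9 and 94.3 CPM after co-treatment (-0.47 ± 0.06, SE; edgeR adjusted p = 0.000186). UTP4 was at 149.99, 150.29 and 152.75 CPM and then 111, 111 and 117 CPM (-0.42 ± 0.04). The late maturation factors TSR1, BYSL, LTV1 and RRP12 fell by 0.40 ± 0.04, 0.36 ± 0.06, 0.33 ± 0.05 and 0.26 ± 0.05 on the log2 scale (SE). IMP3 and IMP4, partners on the U3 particle, fell by 0.30 ± 0.05 and 0.37 ± 0.06. NOP14 and NOC4L, which act together in the processome, fell by 0.22 ± 0.05 and 0.29 ± 0.07, and the long scaffold UTP20 by 0.24 ± 0.05 (SE). On log2(TPM + 1) none of NOP14, NOC4L and UTP20 was called (limma adjusted p = 0.123, 0.0820 and 0.192).

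UTP4, UTP15, WDR43 and WDR75 belong to the subcomplex that joins the precursor first and is also needed for polymerase I transcription. UTP4 and WDR43 fell (WDR43 by 0.35 ± 0.05 on the log2 scale, SE), while UTP15 and WDR75 were not called. UTP15 was at 35.1, 36.4 and 35.0 CPM in the controls and 33.2, 31.6 and 31.4 CPM after co-treatment (-0.15 ± 0.05, SE; edgeR adjusted p = 0.0504). WDR75 was at 85.2, 84.5 and 83.1 CPM and then 79.2, 77.2 and 78.0 CPM (-0.11 ± 0.04, adjusted p = 0.0634). In both, all co-treated libraries lay under all controls in CPM, by a small margin, while in TPM the groups overlapped. The helicase DDX10 was the other gene not called, at 59.8, 56.3 and 56.4 CPM and then 54.1, 51.1 and 53.1 CPM (-0.12 ± 0.05, adjusted p = 0.0702). Whether these sizes differ from those of UTP4 and WDR43 was not tested.

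Large subunit factors were lower in 15 of 18 genes (83.3%, against 17.1% of all genes tested), with a median of -0.33. They held both the deepest fall and the smallest difference of the 52. PPAN (gene ID 56342, chromosome 19, 10106223 to 10112012), an early assembly factor, was at 40.9, 45.1 and 40.3 CPM in the controls and 24.8, 27.1 and 31.6 CPM after co-treatment (-0.60 ± 0.08, SE; edgeR adjusted p = 0.000450). Its reads are hard to separate from those of the read-through gene PPAN-P2RY11, which shares 5651 bases of its span and also fell, from 29.4 ± 5.92 to 20.6 ± 2.37 CPM (SD, n = 3; edgeR adjusted p = 0.00993). NOP16 was at 74.0, 73.2 and 81.7 CPM and then 49.9, 50.6 and 54.7 CPM (-0.56 ± 0.06). EBNA1BP2, a scaffold of early large subunit particles, fell by 0.54 ± 0.04 on the log2 scale (SE).

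PES1, BOP1 and WDR12 form one complex that processes the precursor of the 28S and 5.8S RNAs, and all 3 fell, with log2 fold changes of -0.50 ± 0.05, -0.48 ± 0.09 and -0.30 ± 0.05 (SE). RPF2 and RRS1, which bring in the 5S particle, fell by 0.28 ± 0.05 and 0.32 ± 0.07. MRTO4, which holds the place of a stalk protein on the precursor particle, fell by 0.48 ± 0.06, BRIX1 by 0.34 ± 0.05 and the ribosomal RNA methyltransferase NOP2 by 0.32 ± 0.05 (SE). NOC2L fell by 0.42 ± 0.06, while its partner NOC3L was not called, at 82.4, 84.0 and 80.2 CPM in the controls and 80.3, 69.8 and 72.7 CPM after co-treatment (-0.15 ± 0.06, SE; edgeR adjusted p = 0.0648). For NOC3L the highest co-treated library overlapped the controls. NOC3L was called with DESeq2 (adjusted p = 0.0449) and without co-treated replicate 1 (-0.205, edgeR adjusted p = 0.00969).

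Among the nucleolar GTPases, GNL3 (nucleostemin) and GNL3L fell by 0.28 ± 0.04 and 0.27 ± 0.05 on the log2 scale (SE). On log2(TPM + 1) GNL3L was not called (limma adjusted p = 0.148). GNL2 was at 94.4, 90.0 and 97.7 CPM in the controls and 94.6, 85.3 and 88.4 CPM after co-treatment (-0.07 ± 0.05, SE; edgeR adjusted p = 0.318), with overlapping groups. The ratio of GNL2 to GNL3 was 0.329, 0.320 and 0.342 in the controls and 0.394, 0.382 and 0.372 after co-treatment, a difference of 0.21 on the log2 scale with no overlap (exact permutation test, two-sided, p = 0.1; adjusted p = 0.133 over 4 pairs). The ratio of GNL3 to GNL3L differed by -0.02 and its groups overlapped (exact permutation p = 0.8).

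RRP1 and RRP1B, paralogs that lie apart on chromosome 21 at the positions given below, had unlike values. RRP1 (43789551 to 43805293) was at 34.6, 31.5 and 35.8 CPM in the controls and 23.3, 25.3 and 25.7 CPM after co-treatment, and the log2 fold change was -0.46 ± 0.07 (SE; edgeR adjusted p = 0.000504). RRP1B (43659560 to 43696079) was at 100.2, 99.7 and 96.9 CPM and then 100.4, 94.8 and 95.2 CPM (-0.03 ± 0.04, adjusted p = 0.624). The ratio of RRP1 to RRP1B was 0.346, 0.316 and 0.370 in the controls and 0.233, 0.267 and 0.269 after co-treatment. RRP1 and RRP1B differ in GC content (60.7% and 50.6%) and length (2203 and 5078 bases), which the ratio does not remove. The difference of -0.42 on the log2 scale, with no overlap, was the largest of the 4 pairs (exact permutation test, two-sided, p = 0.1; adjusted p = 0.133 over 4 pairs).

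Smaller changes tended to go with a lower GC content and a longer transcript, with exceptions. Across the 52 genes, the log2 fold change had a Pearson correlation of -0.49 (Spearman -0.47) with the GC content of the transcript and of 0.49 (Spearman 0.53) with the log of transcript length. Over 12476 tested genes of at least 1 CPM the same correlations were -0.20 and 0.28 (Spearman -0.25 and 0.32). Genes share libraries and are not independent replicates, so these values are descriptions. Of the 6 genes not called, 5 were among the 16 genes with a GC content under 45%, where the median log2 fold change was -0.26 and 11 fell (68.8%, against 12.3% of all genes of that GC range, whose median was 0.085). In the 36 genes at or above 45% it was -0.38 and 35 fell (97.2%, against 25.9% of all genes of that range, with a median of -0.047). The gap between the GC ranges among the 52 genes was thus close to that among all genes. With a length trend removed from each library, 47 of the 52 genes fell (17.7% of all genes fell in that fit) and the median was -0.35. With length and GC trends both removed, 50 fell (21.1% of all genes fell in that fit) and the median was -0.33.

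**Figure D4:**
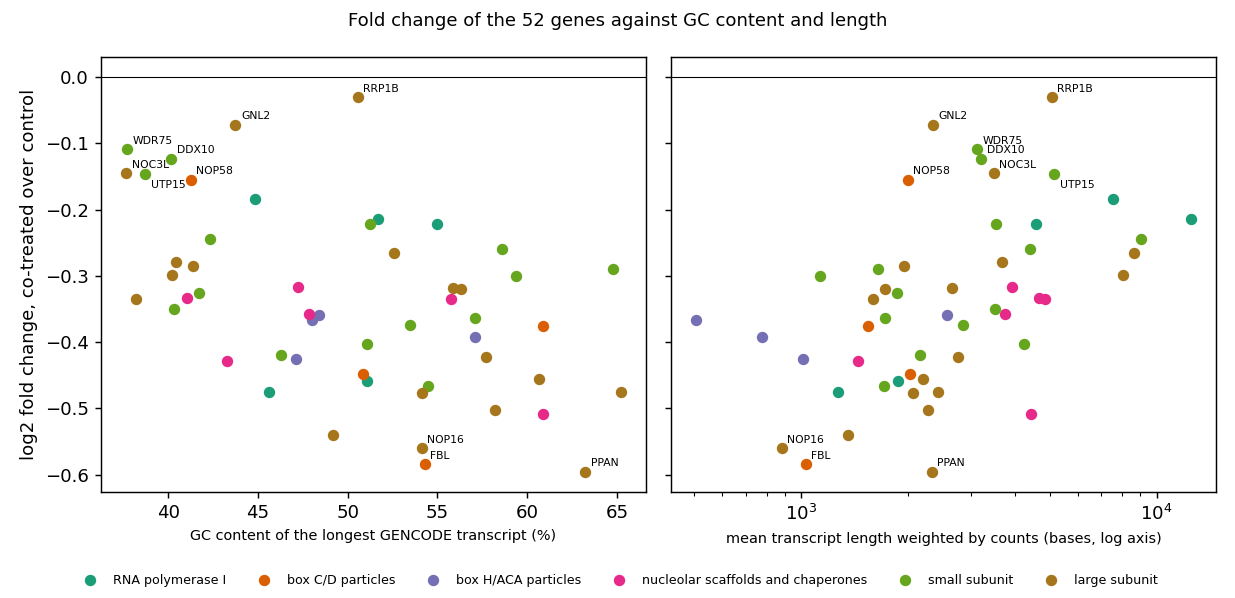
Log2 fold change of the 52 genes (y axis) against the GC content of the longest GENCODE transcript (left, %) and against mean transcript length (right, bases, log axis), coloured by role. RRP1B, at intermediate GC, and GNL2 lie nearest 0, followed by the GC-poor genes WDR75, DDX10, NOC3L and UTP15. Other GC-poor genes lie further from 0, such as BRIX1 (-0.335) and WDR43 (-0.350).

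Levels of these genes, compared per length as TPM, spanned a wide range. NPM1 was highest, at 4398 ± 110 TPM in the controls and 3637 ± 147 TPM after co-treatment (SD, n = 3), and ranked 18 among all genes. NCL followed at 1001 ± 20.7 and 880 ± 27.7 TPM, and FBL at 425 ± 16.7 and 309 ± 15.0 TPM. FBL, NOLC1 (406 ± 15.0 TPM in the controls) and NOP56 (398 ± 10.9 TPM) were neighbours in that order: NOLC1 and NOP56 did not differ beyond their spread, and FBL lay above NOLC1 by a little more than its own SD. In the co-treated libraries NOLC1 was at 347 ± 10.0, NOP56 at 320 ± 11.6 and FBL at 309 ± 15.0 TPM, so that FBL lay below NOLC1, while FBL and NOP56 did not differ beyond their spread. At the lower end were WDR12, GNL3L and UTP15, at 21.4 ± 0.906, 15.7 ± 0.797 and 14.5 ± 0.475 TPM in the controls. NPM1 and NCL together held 45.2% to 46.2% of the summed TPM of the 52 genes in the controls and 44.8% to 46.5% after co-treatment, so the ranges overlapped.

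Shifts between transcript variants were about as frequent as among other genes. Of the 52 genes, 16 had a single listed transcript and 36 had more. The share of a gene's estimated counts held by its most abundant transcript did not overlap between groups in 4 of the 36 (11.1%), against 12.5% of 11785 tested genes of several transcripts. Those 4 were DKC1, GNL3, NPM1 and TCOF1, named after their values were seen. In NPM1 the transcript NM_002520 held 44.9%, 38.4% and 33.1% of counts in the controls and 50.8%, 49.8% and 52.6% after co-treatment, and NM_001037738 held 42.4%, 43.9% and 48.3% and then 37.7%, 38.3% and 38.9%. These shares are estimates from reads that the variants have in common. In 48 of the 52 genes the same transcript was the most abundant in both groups (50 by TPM).

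Several of the genes carry other genes inside their span. A total of 26 snoRNA genes lie within 8 of them, among them NOP56, NOP58, NCL, GNL3 and DKC1. Apart from snoRNA genes, another tested gene of at least 1 CPM overlapped 12 of the 52, such as XPO5 across POLR1C, and the sources used here give no strand setting, so that reads of such pairs cannot be told apart. In the 40 genes without such an overlap, NOP56 with its snoRNA genes included, 35 fell, against 17.1% of all genes tested. Their median was -0.33. The share among all genes without an overlap was not counted.

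The other genes of the pathway, from lists drawn up beside the 52, were in part lower too. Of 132 tested, 74 fell (56.1%, against 17.1% of all genes) and 2 rose, with a median of -0.19. The median was -0.18, -0.20 and -0.17 in co-treated replicates 1, 2 and 3. On log2(TPM + 1) 35 fell and 12 rose (limma), against 8.09% of all genes falling and 27.3% rising on that scale.

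**Figure D5:**
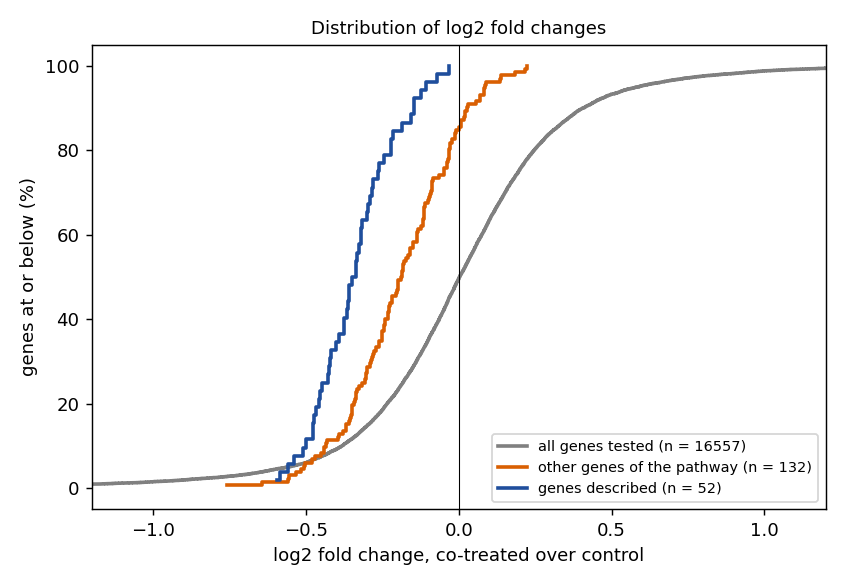
Cumulative share of genes (y axis, %) at or below a log2 fold change (x axis, co-treated over control) for all 16557 genes tested (grey), 132 other genes of the pathway (orange) and the 52 genes described (blue). The orange curve is between the others, with medians of 0.002 (grey), -0.19 (orange) and -0.34 (blue).

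By role, 27 of 42 other small subunit genes fell (64.3%, against 17.1% of all genes) and 1 rose. DHX37, a helicase that releases U3, fell by 0.50 ± 0.08 and BUD23, an 18S methyltransferase, by 0.45 ± 0.07 on the log2 scale (SE). The gene that rose was RIOK3, a kinase of late small subunit precursors, from 75.7 ± 3.79 to 87.9 ± 1.89 CPM (SD, n = 3; edgeR adjusted p = 0.00612). Of 43 other large subunit genes, 27 fell (62.8%) and 1 rose. NLE1 and EIF6, which act on late large subunit precursors, fell by 0.64 ± 0.07 and 0.48 ± 0.06 (SE), and EFL1, the GTPase that releases EIF6, rose from 36.9 ± 0.970 to 43.1 ± 1.86 CPM (SD, n = 3; edgeR adjusted p = 0.00764).

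In the RNA exosome, the 3′ to 5′ nuclease that trims the 5.8S precursor, 7 of 14 genes fell and 0 rose, led by EXOSC5 (-0.76 ± 0.09, SE) and EXOSC7 (-0.51 ± 0.07). Assembly factors of the small nucleolar particles fell in 5 of 12 genes (41.7%, against the same 17.1%), with 0 rises. The paired ATPases RUVBL2 and RUVBL1 were lower by a like amount (-0.55 ± 0.08 and -0.52 ± 0.05, SE). In the short list of nucleolar surveillance and control, RPL5 and RPL11, which with the 5S RNA restrain MDM2 when assembly fails, fell (RPL11 by 0.44 ± 0.06 on the log2 scale). CDKN2A was at 0 counts in all 6 libraries. MYC went from 180.0 ± 6.60 to 125 ± 4.76 CPM (SD, n = 3; edgeR adjusted p = 3.22e-05).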

How the data were processed

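RNA sequencing of 3 control and 3 co-treated samples was analysed. The authors deposited estimated counts (whole numbers), FPKM and TPM per gene and per transcript, per the file headers, and FPKM was not used. Per the submitters' processing notes, the build was GRCh38 and the tools included StringTie 2.1.3b, HISAT2 2.1.0 and Trimmomatic 0.38, with SAMtools 1.9 and Bowtie2. Columns starting with Mo were read as the melatonin and oTR samples. Estimated counts share reads between overlapping genes and variants, and no strand setting is given in the sources used here.

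From the deposited estimated counts, genes were filtered with edgeR 4.0.16 (filterByExpr, minimum count 10) and scaled by RLE factors, the method named in the labels' protocols. They were tested with the edgeR quasi-likelihood test, with Benjamini-Hochberg adjustment over all 16557 genes and a threshold of 0.05. CPM values are scaled by the same factors. The 52 genes, their roles and the further lists were chosen with earlier results of these data known. Values in every library are given for the 2 genes of each role with the largest change, the 1 with the smallest and all genes not called. Of each further list, the 2 largest falls and rises among called genes are named, and every called gene of the polymerase list. Gene pairs were compared as ratios of estimated counts by an exact permutation test. The edgeR test was run on simulated counts in which far fewer genes were changed than were called here. That run does not check the other steps, and its outcome is not given.

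Other settings tried were DESeq2 1.42.0, TMM factors, scaling by library size alone, changed count filters, a replicate block, limma 3.58.1 on log2(TPM + 1) and log2(TPM + 0.1), removal of a length trend, and leaving out each library. Removal of length and GC trends together, and the pair ratios, were chosen after seeing the data. The GC value of a gene was that of its longest GENCODE transcript, found for 52 of 52 genes and for 87.8% of all genes tested. On the TPM scale fold changes include the pseudocount and understate changes of low genes.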

Additional observations from a re-analysis of the deposited data

How the results depend on the processing

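On estimated counts, 44 of the 52 genes were called lower in all 15 alternatives, and NOP58 and POLR1B were the exceptions among the 46. Over all 18 alternatives, the 3 on TPM included, 29 were called in each and 0 genes of the 52 were called higher in any. Single alternatives called 10.1% to 21.5% of all genes lower on estimated counts, and 3.73% to 8.09% on TPM. How many of all genes were called lower in every alternative was not counted. Leaving out one library gave 44 to 48 genes lower and medians of -0.369 to -0.331. It gave 2158 to 2469 genes lower and 2065 to 2357 higher over all genes, and 61 to 75 lower and 2 to 3 higher among the further pathway genes. With library size alone the median of the 52 was -0.284 (that of all genes moved to 0.061), 5 further genes were higher, and RRP1B was at 0.028. All genes then split into 2065 lower and 3816 higher.

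On log2(TPM + 1), log2(TPM + 0.1) and log2(TPM + 1) with no filter, the median of the 52 was -0.209, -0.211 and -0.209, beside 0.091, 0.124 and 0.028 for all genes. Genes lower over the whole table numbered 1339, 1338 and 968, and genes higher 4516, 4490 and 3210. Of the 52, 35, 35 and 29 were lower. Of the further genes, 35, 36 and 31 were lower and 12, 12 and 7 higher. Direction reversed, with no call, for WDR75 (0.070, 0.071, 0.070), DDX10 (0.008, 0.008, 0.008), RRP1B (0.098, 0.100, 0.098) and GNL2 (0.059, 0.060, 0.059). The cause was not tested.

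With one library left out, RNA45SN2 ranged from -0.007 (without co-treated replicate 2) to 0.906 (without co-treated replicate 1). The GNL3 to GNL3L difference ranged from -0.056 (without co-treated replicate 1) to 0.032 (without co-treated replicate 2), and was 0.009 without control replicate 3. Requiring the whole E-box within the 100 bases before the start left 3 promoters of 43. Same-numbered libraries of the groups had correlations of deviations of 0.069, 0 and -0.036, against -0.052 to 0.059 for libraries of unlike number. With so few libraries these values cannot tell whether the samples were paired. With a replicate block, 49 of the 52 genes were lower (46 without it) with a median of -0.343, and 5 further genes were higher. The counts over all genes were 3190 lower and 3177 higher, against 2835 and 2743 without the block.

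With 3 libraries a group, exact tests of single ratios cannot go below 0.1. Averaged over all tested genes, libraries of one group differed by 11.6 to 19.0 times the variance of counting alone. Genes of high counts weigh most in that average, so it does not show what limits the values of single genes here.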
